A study of Homo sapiens with 6 samples.

Results

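The transcripts of 34 ATP-binding cassette (ABC) genes of H460 lung cancer cells were compared between highly invasive (H-INV) and poorly invasive (L-INV) subpopulations. The 34 genes were taken by symbol, and their 52 probes were those that the platform annotation assigned to these symbols among the 47322 probes of the scanner table. Of the 34, 19 had a probe that rose above background on 3 or more of the 6 arrays and were tested among 10279 genes, 13 had probes but none above background on any array, and ABCC1 and ABCC6 were not analysed here because no probe of the annotation used carries their symbol. The drug efflux list, reported apart, held 11 of the 34: ABCB1, the ABCC genes and ABCG2.

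H460 is an established human line of large cell lung carcinoma. Both groups came from this one line by repeated passage through chamber inserts coated with basement membrane extract: L-INV cells were those that stayed in the upper insert in each round (n = 3 arrays), and H-INV cells those that reached the lower vessel (n = 3 arrays). The labels give 48 hours for a round, while the methods of the study give a longer time and fewer rounds. Between rounds, the cells of both groups were kept in glucose-free RPMI-1640 medium with fetal bovine serum, the labels name no drug treatment, and RNA was taken with Trizol. The study also tested the response of these cells to cisplatin, docetaxel and paclitaxel, and the question here is which transporter transcripts differed between the groups. RNA came from 3 sets of cells per group. The sources used here do not state whether each set was a separate selection, and p-values cover the variation among these sets alone. Parental H460 cells were not analysed here, so a difference does not tell which group moved away from the parental level.

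ABC proteins bind and hydrolyse ATP, and most of them use it to move a substrate across a membrane. P-glycoprotein (ABCB1), the multidrug resistance proteins of the ABCC family and ABCG2 pump drugs and their conjugates out of cells, whereas the ABCA proteins carry mainly lipids, several ABCB members outside the drug pumps act in mitochondria or lysosomes, and most ABCD proteins bring fatty acids into peroxisomes. ABCF proteins have no membrane domain and act in translation.

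All values are log2 intensities of 1 probe after background correction and quantile normalization, unless stated otherwise. A probe was called above background on an array at a detection p under 0.01, and the dimmest such probe lay at 5.39 to 5.49 on the 6 arrays. Differences are H-INV minus L-INV with the standard error (SE) and Benjamini-Hochberg adjusted p of limma's moderated test over the 10279 genes. A gene was called at an adjusted p under 0.05. Brightness depends on the probe, so levels were not compared between genes.

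The 6 arrays were of similar brightness, with median scanner intensities of 123 to 134 and 16368 to 16985 probes above background. Arrays of a group correlated at 0.995 to 0.996 and arrays of different groups at 0.92 to 0.927. All 6 lay on 1 BeadChip, with the L-INV arrays in the first 3 positions and the H-INV arrays in the last 3, so position and group cannot be told apart. The keratins KRT8, KRT18 and KRT19 of simple epithelium were above background on all arrays, but KRT19 fell by 4.12 on the log2 scale (limma adjusted p = 6.65e-10). KRT8 was also called lower (-0.297, limma adjusted p = 0.00295), and KRT18 was not called (-0.267, limma adjusted p = 0.0624). EPCAM, the fourth carcinoma marker, was detected by 3 L-INV arrays and 0 H-INV arrays and fell by 1.55 (limma adjusted p = 1.69e-05). Its H-INV level is only bounded by background, so the size of this fall is uncertain. By contrast, the 3 lung lineage markers NKX2-1, SFTPB and SFTPC were above background on none. Of 10 markers of leukocytes, endothelium and fibroblasts, 8 were above background on no array. The other two were CD68, above background on all arrays and lower in H-INV cells by 1.41 on the log2 scale, and COL1A1, above it on 2 H-INV arrays.

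Among the 19 measured ABC genes, 8 were higher and 4 lower in H-INV cells at the adjusted p, and 7 were not called. Of all genes tested, 32.6% were called higher and 25.4% lower, so the 12 called members (63.2% of 19) lay near the 58.0% of all genes called in either direction. Past a 2-fold change, 3 members were lower (ABCA8, ABCG2 and ABCC9) and 0 were higher. ABCG2 and ABCC9 passed the filter on the 3 L-INV arrays alone, so their fitted sizes rest on the background step. The 3 were 1 without background correction and 1 with detection on all 6 arrays. The background for such calls was 6.02% lower and 4.22% higher. The arrays of the groups did not overlap for 14 of the 19 members, against 64.5% of all genes. H-INV arrays were the higher ones for 10 members (36.3% of all genes) and the lower ones for 4 (28.2%). The median difference of the 19 was 0.14, beside 0.05 for all genes.

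**Figure D1:**
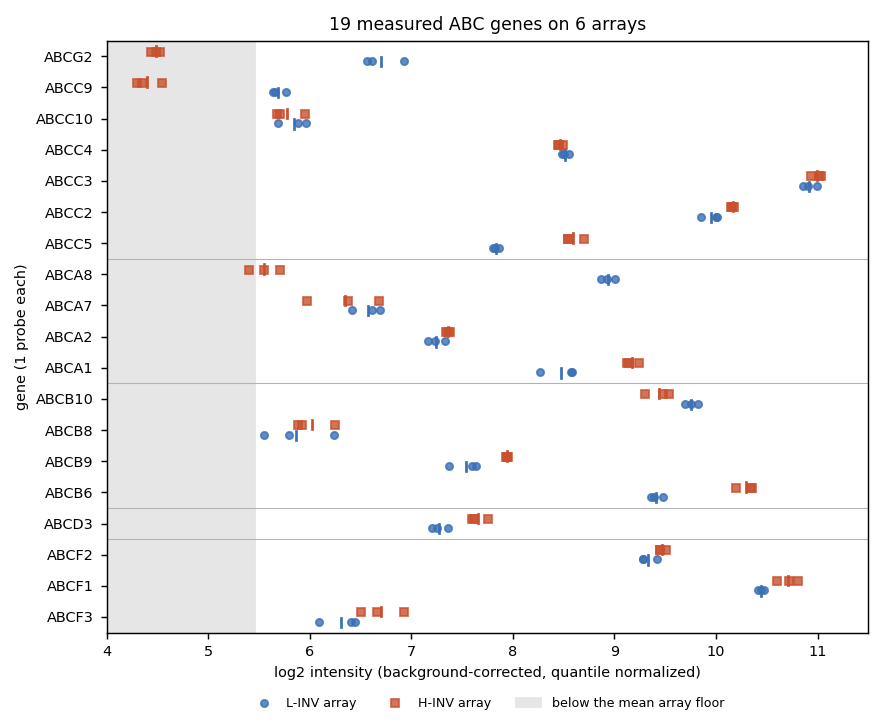
Log2 intensity (x axis) of the 19 measured ABC genes (y axis, 1 probe each, lines separate the families) on the 3 L-INV arrays (blue circles) and the 3 H-INV arrays (orange squares), with a vertical tick at each group mean and grey below the mean array floor. ABCG2 and ABCC9 lay in the grey region on all H-INV arrays and outside it on all L-INV arrays.

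Of the 11 genes of the drug efflux list, 7 were measured: ABCG2 and ABCC9 were lower in H-INV cells, ABCC5 and ABCC2 were higher, and ABCC3, ABCC4 and ABCC10 were not called. The median difference of the 7 was -0.05. ABCG2, the breast cancer resistance protein, is an exporter of many drugs and dyes at the plasma membrane. Its scanner intensity was 248, 198 and 190 in L-INV cells and 113, 112 and 117 in H-INV cells. On the log2 scale these were 6.93, 6.57 and 6.61 in L-INV cells (mean 6.70 ± 0.197, SD, n = 3) and 4.49, 4.44 and 4.52 in H-INV cells (mean 4.48 ± 0.0423, SD, n = 3). All L-INV arrays were therefore above all H-INV arrays, with the probe detected over background by 3 L-INV arrays and by 0 of the 3 H-INV arrays. ABCG2 fell by 2.22 on the log2 scale (SE 0.10, limma adjusted p = 3.66e-07). Since the H-INV level is only bounded by background, the array floor was taken for it, and by that measure H-INV cells had an at least 2.38-fold lower ABCG2 level. Among all genes, 2.59% were likewise above background on all L-INV arrays and no H-INV array and called lower. The size of the difference rests on the background step: it was -0.84 without background correction and -1.29 with an offset of 50 in place of 16. The 2.38-fold bound and the other lower bounds on folds were computed with the offset of 16 only and hold for that setting. Other background settings gave smaller differences, some of them below the bound.

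ABCC9 showed the same pattern near background. ABCC9 encodes SUR2, a sulfonylurea receptor and regulatory subunit of ATP-sensitive potassium channels, and is not known as a drug pump. Its tested probe read 5.65, 5.76 and 5.64 in L-INV cells and 4.55, 4.29 and 4.35 in H-INV cells, again with no overlap and with 0 H-INV arrays above background. ABCC9 fell by 1.29 on the log2 scale (SE 0.08, limma adjusted p = 3.84e-06) and was at least 1.18-fold lower. Its difference was -0.49 without background correction and -0.63 with an offset of 50, both short of 2-fold. The other ABCC9 probe read 5.35, 5.75 and 4.98 in L-INV cells and 4.63, 4.91 and 5.09 in H-INV cells. It was above background on 1 L-INV array, its groups overlapped, and where a looser filter made it the probe used for ABCC9 the difference was -0.49, with adjusted p = 0.116 without a detection filter and 0.0739 at a detection p under 0.05. Both pore subunits that pair with sulfonylurea receptors, KCNJ8 and KCNJ11, failed the filter of 3 arrays, and so did the other receptor gene, ABCC8 (4.33 to 4.40 in L-INV cells and 4.33 to 4.37 in H-INV cells). Both ABCG2 and ABCC9 passed the filter on the 3 L-INV arrays alone, so leaving out any L-INV array removed both from the test. With a filter of 2 arrays, chosen after seeing the data, ABCG2 differed by -2.11, -2.29 and -2.26 without L-INV replicate 1, 2 and 3 and ABCC9 by -1.31, -1.25 and -1.31, all called. Both genes again passed through L-INV arrays alone, so these calls add no separate support.

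ABCC5 had the largest rise on the drug efflux list. ABCC5 (MRP5) exports cyclic nucleotides and nucleotide analogs. It read 7.81, 7.82 and 7.87 in L-INV cells and 8.54, 8.54 and 8.70 in H-INV cells, with no overlap. ABCC5 rose by 0.76 on the log2 scale (SE 0.07, limma adjusted p = 3.40e-05), which is 1.69-fold. A second ABCC5 probe gave 7.51, 7.56 and 7.49 in L-INV cells and 8.19, 8.28 and 8.41 in H-INV cells. Its difference was 0.77 (adjusted p = 8.80e-05 in a limma fit over the 16941 probes above background), so both probes moved alike. The remaining ABCC5 probe was at background on all arrays.

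ABCC2 (MRP2), an exporter of glutathione and glucuronide conjugates that also acts on platinum complexes, was slightly higher in H-INV cells. It read 10.01, 9.99 and 9.85 in L-INV cells and 10.18, 10.16 and 10.15 in H-INV cells. The groups did not overlap, and ABCC2 rose by 0.21 on the log2 scale (SE 0.07, limma adjusted p = 0.0288). The call was lost without L-INV replicate 3 (adjusted p = 0.0806) and without H-INV replicate 1 (0.0729), 2 (0.0693) or 3 (0.0562). It was also lost without a detection filter (adjusted p = 0.0673).

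The other three measured genes of the list had overlapping groups and intervals narrower than 2-fold in either direction. ABCC3 (MRP3), which exports bile salts and glucuronides, read 10.86, 10.99 and 10.90 in L-INV cells and 11.03, 10.94 and 11.01 in H-INV cells. Its difference was 0.08 with a 95% interval of -0.08 to 0.23 (limma adjusted p = 0.372). ABCC4 (MRP4), an exporter of cyclic nucleotides and prostaglandins, read 8.55, 8.51 and 8.49 in L-INV cells and 8.44, 8.49 and 8.46 in H-INV cells. Its difference was -0.05 with an interval of -0.20 to 0.09 (limma adjusted p = 0.487). ABCC3 and ABCC4 thus showed no called difference by these probes. A second ABCC4 probe read 7.84, 7.69 and 7.64 in L-INV cells and 7.57, 7.60 and 7.53 in H-INV cells, a difference of -0.15 (SE 0.08) that was not called over all probes (limma adjusted p = 0.127), although all H-INV arrays lay below all L-INV arrays. ABCC10 (MRP7), which can export taxanes, was dim and read 5.69, 5.96 and 5.89 in L-INV cells and 5.95, 5.71 and 5.68 in H-INV cells. Its difference was -0.07 with an interval of -0.30 to 0.16 (limma adjusted p = 0.594), so neither group stood above the other.

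ABCB1, which encodes P-glycoprotein, the exporter of taxanes and many other drugs, was not detectable. One of its probes read 4.55, 5.32 and 4.63 in L-INV cells and 4.89, 4.69 and 4.71 in H-INV cells, and the other lay between 4.27 and 4.50 on all arrays. Neither probe was above background on any array, so no fold change was given for ABCB1. ABCB4, which neighbours ABCB1 on chromosome 7 and encodes the phosphatidylcholine translocator of bile, was above background on no array either.

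**Figure D2:**
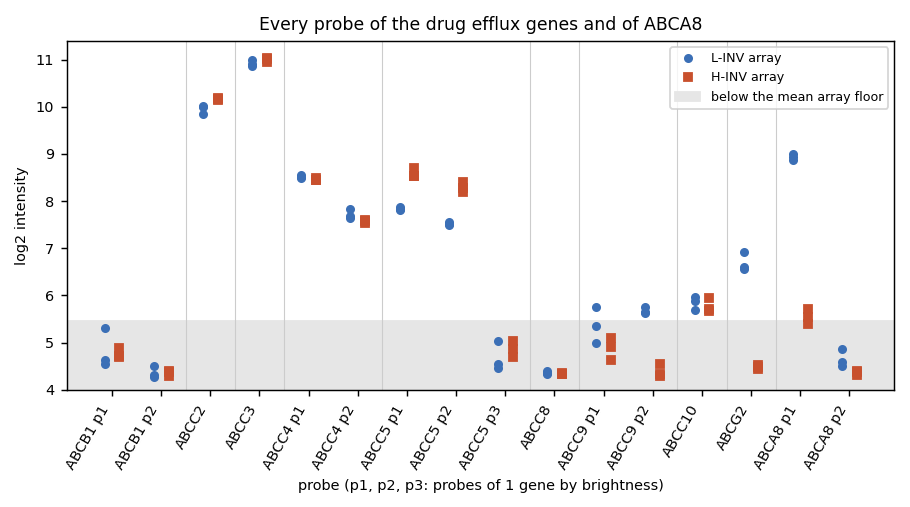
Log2 intensity (y axis) of every probe of the drug efflux genes and of ABCA8 (x axis; probes of 1 gene ordered by mean brightness over the 6 arrays) on L-INV arrays (blue circles) and H-INV arrays (orange squares), with grey below the mean array floor. Both bright ABCC5 probes were higher on all H-INV arrays, whereas the ABCC9 and ABCA8 probes of 1 gene differed from each other.

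ABCA8, the lipid transporter with the widest difference among the members, lay in the ABCA family. In this family of 10 listed genes, 4 were measured: ABCA8 was lower, ABCA1 was higher, and ABCA2 and ABCA7 were not called. ABCA8 promotes cholesterol and sphingolipid movement out of cells. Its scanner intensity was 699, 593 and 538 in L-INV cells and 148, 141 and 146 in H-INV cells. On the log2 scale it read 9.01, 8.93 and 8.87 in L-INV cells and 5.71, 5.40 and 5.55 in H-INV cells. The groups were far apart, and the H-INV arrays, although above background, lay close to the array floor. ABCA8 fell by 3.38 on the log2 scale (SE 0.09, limma adjusted p = 1.41e-08), a 10.4-fold difference that placed it at rank 66 of all genes by size of fall, with ABCG2 at rank 155. The ABCA8 difference was -2.00 without background correction, the smallest of the alternatives. The other ABCA8 probe was above background on no array, with 4.60, 4.86 and 4.50 in L-INV cells and 4.32, 4.38 and 4.39 in H-INV cells.

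ABCA8 belongs to a row of neighbouring ABCA genes on chromosome 17, in the order ABCA8, ABCA9, ABCA6, ABCA10 and ABCA5. ABCA9, which is no member of the 34 but lies next to ABCA8, was detected in L-INV cells only. It fell by 1.77 on the log2 scale (limma adjusted p = 5.02e-07), at least 2.73-fold. Its difference was -0.70 without background correction and -1.15 with an offset of 50. The other three genes of the row, ABCA5, ABCA6 and ABCA10, were above background on no array, so no direction could be given for them.

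ABCA1 moves cholesterol and phospholipids from cells to apolipoprotein A-I. It read 8.58, 8.57 and 8.27 in L-INV cells and 9.13, 9.24 and 9.15 in H-INV cells, so the groups did not overlap. ABCA1 rose by 0.70 on the log2 scale (SE 0.10, limma adjusted p = 3.29e-04), which is 1.62-fold. ABCA2, a lipid transporter of lysosomes, differed by 0.12 with an interval of -0.04 to 0.28 (limma adjusted p = 0.169), although its arrays did not overlap. ABCA7, a phospholipid transporter close to ABCA1 in sequence, read 6.61, 6.42 and 6.69 in L-INV cells and 5.97, 6.38 and 6.68 in H-INV cells. The H-INV arrays of ABCA7 spread widely, and its difference was -0.23 with an interval of -0.61 to 0.15 (limma adjusted p = 0.265). Without H-INV replicate 3, ABCA7 was called at -0.40 (adjusted p = 0.0425).

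Of the 5 ABCB genes outside the drug pumps, 4 were measured, of which ABCB6 and ABCB9 were higher, ABCB10 was lower and ABCB8 was not called. ABCB6, a transporter of porphyrins, read 9.48, 9.36 and 9.39 in L-INV cells and 10.20, 10.34 and 10.36 in H-INV cells. ABCB6 rose by 0.89 on the log2 scale (SE 0.07, limma adjusted p = 1.59e-05), 1.85-fold, the largest rise among the 34 members but only rank 558 among all genes by size of rise. ABCB9, which carries peptides into lysosomes, rose by 0.41 (SE 0.08, limma adjusted p = 0.00282). It read 7.64, 7.59 and 7.38 in L-INV cells and 7.94, 7.93 and 7.95 in H-INV cells. A second ABCB9 probe moved the same way, with 6.50, 6.78 and 6.95 in L-INV cells and 7.39, 7.11 and 7.07 in H-INV cells, a difference of 0.45 (limma adjusted p over all probes = 0.0214). ABCB10 and ABCB8 sit in the inner mitochondrial membrane. ABCB10, which acts in haem synthesis, read 9.82, 9.75 and 9.70 in L-INV cells and 9.30, 9.48 and 9.54 in H-INV cells and fell by 0.32 on the log2 scale (SE 0.08, limma adjusted p = 0.00975). The porphyrin carrier ABCB6 and ABCB10 thus moved in opposite directions. ABCB8 ranged from 5.54 to 6.24 in L-INV cells and from 5.89 to 6.25 in H-INV cells, a difference of 0.16 with an interval of -0.24 to 0.56 (limma adjusted p = 0.459).

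ABCD3, a fatty acid transporter of the peroxisomal membrane, was the only one of the 3 ABCD genes above background. It read 7.21, 7.25 and 7.36 in L-INV cells and 7.60, 7.62 and 7.75 in H-INV cells. ABCD3 rose by 0.38 on the log2 scale (SE 0.08, limma adjusted p = 0.00241). All 3 ABCF genes were measured, and ABCF1 and ABCF3 were called higher. ABCF1, which binds the initiation factor eIF2, read 10.44, 10.41 and 10.47 in L-INV cells and 10.81, 10.71 and 10.61 in H-INV cells, and rose by 0.27 on the log2 scale (SE 0.07, limma adjusted p = 0.0127). A second ABCF1 probe gave 0.26 (limma adjusted p over all probes = 0.0447). ABCF3 read 6.40, 6.09 and 6.44 in L-INV cells and 6.66, 6.92 and 6.51 in H-INV cells and rose by 0.39 (SE 0.13, limma adjusted p = 0.0298). The ABCF3 call was lost without L-INV replicate 2 (adjusted p = 0.0941), H-INV replicate 1 (0.0535) or H-INV replicate 2 (0.0953), and under the unmoderated test that the methods name (0.124). ABCF2 differed by 0.14 with an interval of -0.02 to 0.30 (limma adjusted p = 0.121), with arrays that did not overlap.

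The 13 members with no array above background had 21 probes, all between 4.27 and 5.32 on every array. Besides ABCB1, ABCB4 and ABCC8 they were 6 ABCA genes (ABCA3, ABCA4, ABCA5, ABCA6, ABCA10 and ABCA12), ABCD2, ABCD4, ABCG4 and ABCG5. ABCA3 carries surfactant lipids in alveolar cells, ABCA4 retinoids in the retina and ABCA12 skin lipids, and ABCG5 exports plant sterols. ABCG4, a sterol exporter of the brain, and ABCD4, which acts in lysosomal vitamin B12 handling, were not detectable at this brightness either.

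**Figure D3:**
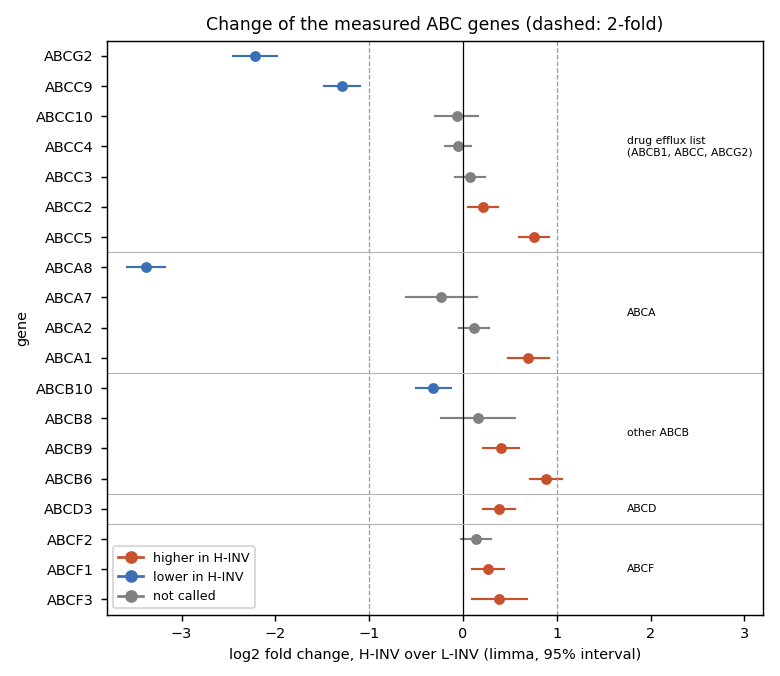
Log2 fold change of H-INV over L-INV (x axis, points) with the 95% interval of the limma fit (lines) for the 19 measured ABC genes (y axis, grouped by family), coloured by call, with dashed lines at a 2-fold change. ABCA8, ABCG2 and ABCC9 lay beyond 2-fold on the lower side, and no point lay beyond it on the higher side. ABCG2 and ABCC9 were at background on all H-INV arrays, so the place of their points rests on the background step.

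Promoter windows are shown for the pair of drug efflux list genes that were lower past 2-fold and for ABCC5, ABCB6 and ABCA1, the members with the widest rises. They were chosen after their values were seen. ABCA8, also lower past 2-fold, had no window to print. The windows are 250 bases before and 50 after a gene's start as RefSeq annotates it on GRCh38.p14, printed 5′ to 3′ on the gene's strand. Of the 34 members, 28 had 42 windows in the table, 5 of them for ABCG2, of which the second is printed because it is the first of 2 overlapping windows that hold the letters searched for. The other 3 ABCG2 windows hold neither of them. Capitals mark the GC box GGGCGG, to which SP1 binds, and the letters ACGTG, the core of hypoxia response elements, both searched on both strands. ACGTG also lies within the E-box CACGTG, where it counts on either strand.
ABCG2, chr4:88158810-88159109, minus strand: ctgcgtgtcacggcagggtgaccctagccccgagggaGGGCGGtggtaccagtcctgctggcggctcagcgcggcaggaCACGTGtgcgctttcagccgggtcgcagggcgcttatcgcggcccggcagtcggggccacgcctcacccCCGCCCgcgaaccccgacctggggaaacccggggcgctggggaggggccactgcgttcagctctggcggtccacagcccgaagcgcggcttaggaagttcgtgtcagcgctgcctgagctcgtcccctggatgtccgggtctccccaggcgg
ABCC9, chr12:21941377-21941676, minus strand: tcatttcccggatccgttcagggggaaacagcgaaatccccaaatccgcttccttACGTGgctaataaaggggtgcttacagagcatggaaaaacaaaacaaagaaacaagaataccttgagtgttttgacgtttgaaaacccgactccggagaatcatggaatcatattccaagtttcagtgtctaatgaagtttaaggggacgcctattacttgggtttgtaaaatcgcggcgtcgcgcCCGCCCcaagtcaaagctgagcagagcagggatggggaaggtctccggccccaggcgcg
ABCC5, chr3:184017835-184018134, minus strand: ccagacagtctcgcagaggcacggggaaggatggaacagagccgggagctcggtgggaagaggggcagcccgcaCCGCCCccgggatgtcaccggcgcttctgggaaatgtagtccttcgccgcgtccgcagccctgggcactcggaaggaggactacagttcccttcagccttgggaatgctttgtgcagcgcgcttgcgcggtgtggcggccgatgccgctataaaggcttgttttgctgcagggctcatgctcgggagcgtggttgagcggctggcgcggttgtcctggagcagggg
ABCB6, chr2:219218909-219219208, minus strand: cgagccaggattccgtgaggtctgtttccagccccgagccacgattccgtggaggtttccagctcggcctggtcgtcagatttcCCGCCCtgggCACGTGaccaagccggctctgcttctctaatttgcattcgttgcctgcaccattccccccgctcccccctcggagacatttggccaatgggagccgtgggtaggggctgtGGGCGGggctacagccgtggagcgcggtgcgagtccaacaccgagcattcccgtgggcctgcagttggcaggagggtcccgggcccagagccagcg
ABCA1, chr9:104928106-104928405, minus strand: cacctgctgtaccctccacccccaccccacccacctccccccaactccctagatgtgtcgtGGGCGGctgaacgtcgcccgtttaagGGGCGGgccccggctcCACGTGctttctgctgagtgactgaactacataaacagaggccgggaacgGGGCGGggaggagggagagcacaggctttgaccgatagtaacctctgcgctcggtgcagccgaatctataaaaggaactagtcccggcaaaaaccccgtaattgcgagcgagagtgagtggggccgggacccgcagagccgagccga

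The printed ABCG2 window held 2 GC boxes and 1 E-box, the ABCB6 window likewise 2 GC boxes and 1 E-box, and the ABCA1 window 3 GC boxes and 1 E-box. The ABCC9 window held 1 GC box and 1 ACGTG outside an E-box, and the ABCC5 window 1 GC box and no ACGTG. Over all 35116 windows of this length, 45% held GGGCGG, 21.4% ACGTG and 7.26% CACGTG. The printed ABCG2 window was picked because it holds these letters, so its counts cannot be read against these shares. The printed windows held 33 CG pairs in ABCG2, 18 in ABCC9, 26 in ABCC5, 23 in ABCB6 and 23 in ABCA1, against a median of 14 over all windows. The ABCG2 windows that were not printed held 35, 33, 11 and 3. A match of letters is a description of the window and not a binding site.

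**Figure D4:**
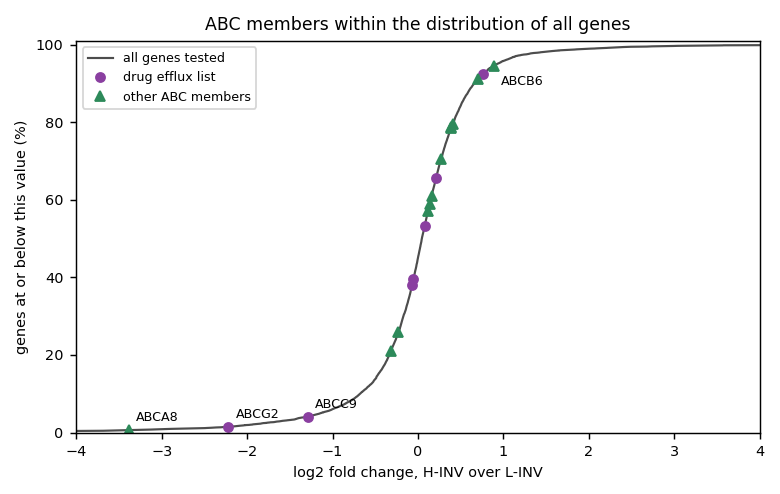
Share of all 10279 genes at or below a log2 fold change (y axis, %) against the log2 fold change of H-INV over L-INV (x axis, grey line), with the drug efflux list (purple circles) and the other ABC members (green triangles) placed on it. ABCA8 and ABCG2 lay in the lower tail at ranks 66 and 155, while the highest member, ABCB6, was at rank 558 from the top.

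Lists of genes that act with ABC transporters were described by their counts, to be read against the same 32.6% of genes called higher and 25.4% called lower. Among ABC genes outside the 34, 5 of 14 listed were measured, of which 3 were lower and 1 higher. Apart from ABCA9, ABCG1, which exports cholesterol to high density lipoprotein, fell by 1.27 on the log2 scale (limma adjusted p = 1.31e-06) and was at least 2.05-fold lower, with 0 H-INV arrays above background. The ABCG1 difference was -0.47 without background correction. ABCE1, a ribosome recycling factor, rose by 0.52 (adjusted p = 1.90e-04). Without any one L-INV array, ABCA9 and ABCG1 failed the filter and the count of lower genes was 1.

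The cholesterol efflux list had 7 genes higher and 3 lower of 10 measured, with a median difference of 0.50. PLTP, the phospholipid transfer protein, rose by 1.97 on the log2 scale (limma adjusted p = 5.78e-08) and APOE, an apolipoprotein that accepts cholesterol, by 1.66 (adjusted p = 6.19e-07), at least 1.64-fold since it was at background in L-INV cells. The APOE difference was 0.57 without background correction and 0.90 with an offset of 50. APOE passed the filter on the 3 H-INV arrays alone, so leaving out any H-INV array removed it from the test. ABCA1 and ABCG1, both exporters of cellular cholesterol, thus differed in opposite directions. Of the 14 measured transcription regulators of ABC genes, 5 were higher, 3 lower and 6 not called. RXRA, the partner of many nuclear receptors, rose by 1.01 (adjusted p = 7.48e-06), and KEAP1, the repressor of NRF2, and the hypoxia factor EPAS1 each rose by 0.68 (adjusted p = 6.13e-05 and 6.29e-04). NR1H3, a liver X receptor that controls ABCA1 and ABCG1, differed by 0.06 (limma adjusted p = 0.494). The other liver X receptor gene, NR1H2, was not analysed here because no probe of the annotation used carries its symbol. The count of higher regulators was 3 without L-INV replicate 2 and 3 without L-INV replicate 3.

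The list of drug carriers other than ABC proteins also held MVP, a vault protein gene and not a carrier. Of its 7 measured genes, 6 were higher and 1, MVP, was lower, with a median difference of 0.70. The 6 higher genes were carriers of the SLC and SLCO families. Whether they move drugs into or out of these cells was not tested. The organic anion carriers SLCO3A1 and SLCO2B1 were above background in H-INV cells only: SLCO3A1 rose by 2.21 on the log2 scale (limma adjusted p = 7.13e-07), at least 3.43-fold, and SLCO2B1 by 1.52 (adjusted p = 4.02e-05), at least 1.61-fold. Without background correction, these differences were 0.93 for SLCO3A1 and 0.53 for SLCO2B1, and with an offset of 50 they were 1.48 and 0.84. Averaging the probes gave 1.51 for SLCO3A1. Both carriers passed the filter on the 3 H-INV arrays alone. Leaving out any H-INV array, or requiring detection on all 6 arrays, removed both from the test. SLC19A1, the reduced folate carrier, rose by 1.27 (adjusted p = 1.17e-04). The major vault protein gene MVP was the gene of this list that fell, by 0.72 on the log2 scale.

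Genes of platinum and copper transport showed small differences: of 8 measured, 2 were higher, 2 lower and 4 not called. SLC31A2, a copper transporter of endosomes, rose by 0.49, the copper chaperone ATOX1 rose by 0.43 and the copper pump ATP7A fell by 0.36 on the log2 scale. SLC31A1, the main copper uptake transporter, also fell by 0.36 (limma adjusted p = 0.00200). Under the unmoderated test that the methods name, the SLC31A2 and ATP7A calls were lost (adjusted p = 0.0505 and 0.0503).

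Glutathione genes, whose conjugates ABCC proteins export, were 6 higher, 2 lower and 6 not called of 14 measured. The mu-class transferases led: GSTM3 rose by 1.97 on the log2 scale (limma adjusted p = 7.21e-08), GSTM4 by 1.67 (adjusted p = 2.59e-07) and GSTM2 by 1.43 (adjusted p = 8.46e-07). Sequences of this family are near-identical, so a probe may read more than its own gene. The GSTM4 difference was 1.04 when its probes were averaged. Genes of proteins that hold transporters in the membrane went the other way, with 5 of 7 measured lower, 0 higher and a median of -0.26. The caveola protein gene CAV1 fell by 2.97 on the log2 scale (limma adjusted p = 1.66e-08), EZR, which encodes the linker ezrin, by 1.29 (adjusted p = 1.85e-06) and the raft protein gene FLOT1 by 0.55 (adjusted p = 2.53e-04).

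The list of partners of the ABCD proteins joined peroxisome genes with the vitamin B12 genes MMADHC, LMBRD1 and MMACHC. Of its 12 measured genes, 6 were higher, 1 lower and 5 not called. Among the vitamin B12 genes, MMADHC was called higher (0.42 on the log2 scale), and LMBRD1 and MMACHC were not called. ACSL4 and SLC27A2, which activate fatty acids, rose by 1.28 (limma adjusted p = 4.97e-06) and 0.72 on the log2 scale, and PEX19, the chaperone of peroxisomal membrane proteins, fell by 0.59 (adjusted p = 6.65e-05). Of the 9 translation factors that act beside the ABCF proteins, 5 were higher, 2 lower and 2 not called. EIF5 rose by 0.72 and ETF1, the release factor, by 0.46, while EIF2S2, the beta subunit of eIF2, fell by 0.36 on the log2 scale. The count of lower translation factors was 1 without any 1 of L-INV replicates 1, 2 and 3 or of H-INV replicates 1 and 2.

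**Figure D5:**
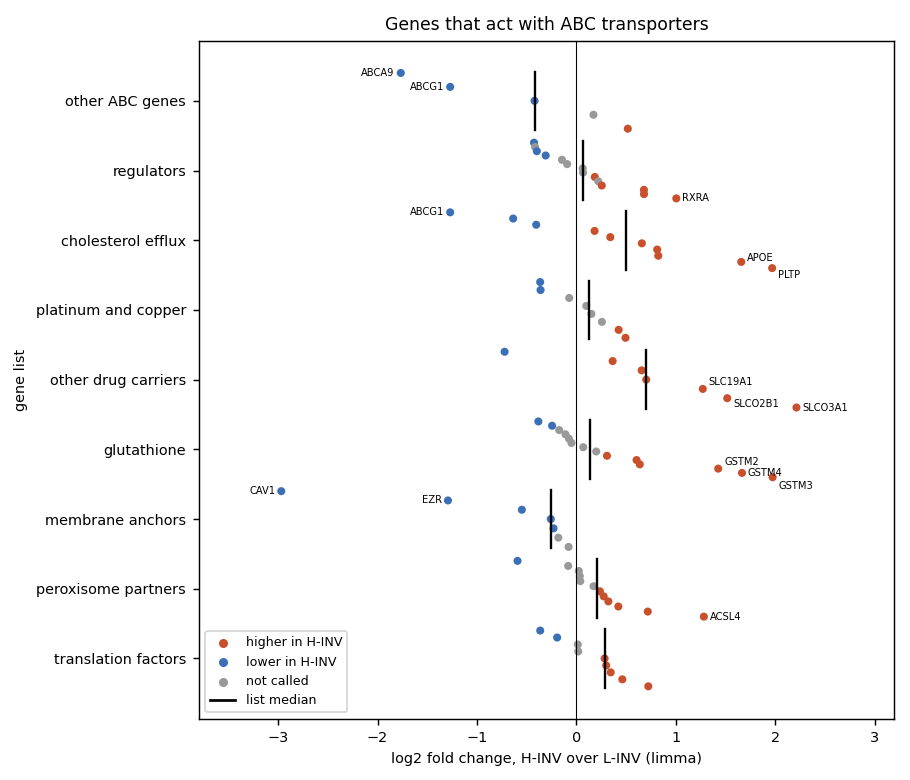
Log2 fold change of H-INV over L-INV (x axis) of each measured gene (points, coloured by call) in 9 lists of genes that act with ABC transporters (y axis), with the list median as a vertical bar and names at called changes beyond 2-fold. Other drug carriers lay mostly to the right of 0 and membrane anchor genes to the left.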

How the data were processed

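RNA of 6 samples of H460 cells (3 L-INV, 3 H-INV, grouped by the labels) was hybridised to Illumina HT-12 v4 BeadChips. The authors exported deposited scanner intensity values with a detection p-value for each of 47322 probes from GenomeStudio, without normalization, and deposited a second intensity table of 47320 probes that they had background-corrected and normalized, with values down to -24. The scanner values were corrected for background by limma's normexp (nec, offset 16), with negative controls that nec infers through the detection p-values, then quantile normalized and put on the log2 scale (limma 3.58.1, R 4.3.3). Probes with a detection p under 0.01 on at least 3 arrays were kept (16941), and the brightest probe stood for each gene. The filter admits genes present in 1 group only.

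Gene names came from the platform annotation, in which 30111 probes had 1 symbol, 8 several and 17203 none. H-INV was compared with L-INV by lmFit and eBayes with Benjamini-Hochberg adjustment over 10279 genes, in place of the one-way ANOVA of the methods, which was run as an alternative with 16 others. Lower bounds on folds set the dimmest probe above background on each array as the level of the dim group, at the offset of 16. Values on every array are given for members past 2-fold, measured drug efflux members and members whose probes differed. For each other list, the fitted differences of up to 3 genes with the largest called change are given. ABC members below those limits were added for completeness. Members and lists were chosen with earlier results of these data known. Precision is limited by how many arrays there were (median SE 0.0824). In simulated data of 10279 genes for this comparison, limma called 97 of 100 genes changed 3-fold and 77 of 100 changed 1.5-fold, with 17 false calls. Only those genes were changed there, with independent normal noise, whereas 58.0% of genes were called in the data. The simulated rates therefore need not hold for the data.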

Additional observations from a re-analysis of the deposited data

How the results depend on the processing

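Over 17 alternatives, 315 differences of the 19 measured ABC genes were recomputed: 300 kept direction and side of the threshold, 14 kept direction and lost the call, 1 (ABCA7 without H-INV replicate 3) gained one, and 0 reversed. The lost calls were those of ABCC2, ABCF3 and, where the other probe was used, ABCC9. The 4 members lower in H-INV cells were 2 when detection on all 6 arrays was required, which leaves out ABCG2 and ABCC9, and 2 to 5 when a replicate was left out. The 3 members lower past 2-fold were 1 without background correction, 1 with detection on all arrays, and 1 to 3 without a replicate. The 2 higher drug efflux genes were 1 without a detection filter and 1 to 2 without a replicate. The 2 lower ones were 1 without a detection filter, 1 at a detection p under 0.05, 0 with detection on all arrays, and 0 to 2 without a replicate. Without a detection filter ABCA3 was called lower (-0.33, adjusted p = 0.0184), although it was above background on no array. Over all genes, the 434 higher and 619 lower past 2-fold were 160 and 307 without background correction, 255 and 436 with an offset of 50, and 254 and 385 with detection on all arrays.

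Samples with the same replicate number did not deviate together (correlations of -0.0665, -0.0194 and -0.0926). These values give no sign that the numbers pair the samples, but 3 arrays a group cannot exclude it. With the replicate number as a block, 5647 genes were called in place of 5958, and the ABCC2 and ABCF3 calls were lost (adjusted p = 0.0539 and 0.0606), which left 1 higher drug efflux gene under the block. Signal over background limits the rest: ABCG2, ABCC9 and 13 unmeasured members lie at background in at least 1 group, so their differences are bounds or unknown. Of 422 recomputed differences of 26 named genes of the other lists, 420 kept their call. An alternative in which a gene failed the detection filter gave no difference for it. Such cases are counted neither here nor among the recomputed differences of the ABC members.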
